A study of Mus musculus with 6 samples.

Results

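Messenger RNA of 7 GABA-A receptor subunits, Gabra2, Gabra3, Gabra4, Gabra5, Gabrb1, Gabrb2 and Gabrd, was examined in the prefrontal cortex (PFC) of mice after early life stress (ELS). The members were the rows of the deposited count table that carry these 7 gene symbols, of 22000 rows in all. RNA-seq had been performed on PFC from 3 control and 3 ELS mice, with 1 library per mouse. All 6 were wild-type C57BL/6N males sampled at 9 weeks of age. ELS was social isolation, in which a male was housed alone under a filter cap from weaning and stayed alone until dissection, whereas control males shared a cage without a cap. The groups therefore also differ in the cap, which cannot be told apart from isolation in these data. It is not given in the sources used here whether the 3 control mice shared 1 cage.

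GABA-A receptors are pentameric chloride channels that open when GABA binds, and they carry most fast inhibition in the cortex. A typical receptor joins alpha and beta subunits with a gamma or a delta subunit, and the mix sets where the receptor sits and which drugs it answers to. Many receptors gather at synapses through the scaffold protein gephyrin, while receptors with alpha4 and delta, or with alpha5, lie largely outside synapses and give a steady, tonic current. Delta-containing receptors are highly sensitive to neurosteroids such as allopregnanolone, and alpha2-containing receptors are a known target of the anxiety-reducing action of benzodiazepines.

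In these libraries none of the 7 subunits differed between ELS and control mice at the thresholds applied, an adjusted p under 0.05 with an absolute log2 fold change above 0.3. With all 6 mice, the 95% intervals of 6 of the 7 lay wholly inside that fold change threshold, but with 1 mouse left out the interval of Gabrb1, Gabrb2 or Gabrd passed it in 5 of the 6 fits. Gabra2 was the exception: its 3 ELS mice all lay above its 3 control mice, by a narrow margin, and its difference did not pass the adjustment for multiple tests. Mice of the same group differed from each other by more than the groups did in 6 of the 7 subunits, the beta subunits among them. The same held for the medians over all genes tested.

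Subunit genes of this family lie in clusters, and positions are those of GENCODE M21 (GRCm38, or mm10). Gabra2 (chromosome 5, 70957597 to 71095849, minus strand), Gabra4 (chromosome 5, 71569749 to 71658308, minus strand) and Gabrb1 (chromosome 5, 71658113 to 72149037, plus strand) share a cluster with Gabrg1. Gabra5 (chromosome 7, 57407672 to 57510059, minus strand) lies beside Gabrg3, and Gabrb2 (chromosome 11, 42419757 to 42629028, plus strand) lies near Gabra6. Gabra3 is on chromosome X, from 72432681 to 72656848 (minus strand), between Gabre and Gabrq, and Gabrd, on chromosome 4 from 155384980 to 155398112 (minus strand), has no neighbour from the family. Gabra4 and Gabrb1 stand head to head, and their gene bodies overlap by 196 bp at their 5' ends. Only 46 bp of this is exon in both genes, 0.756% of the Gabra4 exons and 0.332% of the Gabrb1 exons. A noncoding antisense gene overlaps 4.98% of the Gabra5 exons, and the strand setting of the counting is not given in the sources used here. The exons of the other 4 members overlap the exons of no other annotated gene.

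The 250 bases before an annotated start are shown for the subunit whose groups did not overlap, Gabra2, and for Gabrb1 and Gabrb2, whose levels moved together from mouse to mouse. The sequences are from RefSeq on GRCm38.p6, written 5' to 3' on the strand of the gene, and capitals mark matches to the motifs searched. They cover chr5:71095850-71096099 (minus strand) for Gabra2, chr5:71699682-71699931 (plus strand) for the inner of 2 starts of Gabrb1, and chr11:42420190-42420439 (plus strand) for the first of 3 starts of Gabrb2.
Gabra2: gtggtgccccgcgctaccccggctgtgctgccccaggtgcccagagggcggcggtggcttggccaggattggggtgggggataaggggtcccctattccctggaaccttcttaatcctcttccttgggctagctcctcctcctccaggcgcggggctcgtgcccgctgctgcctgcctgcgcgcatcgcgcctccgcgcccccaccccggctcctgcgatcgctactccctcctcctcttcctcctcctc
Gabrb1: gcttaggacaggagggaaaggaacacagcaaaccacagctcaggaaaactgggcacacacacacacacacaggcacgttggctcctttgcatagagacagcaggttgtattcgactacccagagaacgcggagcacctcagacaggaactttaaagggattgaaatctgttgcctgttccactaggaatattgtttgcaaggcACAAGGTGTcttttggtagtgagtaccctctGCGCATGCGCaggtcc
Gabrb2: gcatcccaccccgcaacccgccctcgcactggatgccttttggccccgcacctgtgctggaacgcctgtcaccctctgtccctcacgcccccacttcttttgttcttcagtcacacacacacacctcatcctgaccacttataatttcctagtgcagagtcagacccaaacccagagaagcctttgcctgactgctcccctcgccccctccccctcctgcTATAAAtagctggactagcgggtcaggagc

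The 9 motifs were searched on both strands, and N stands for any base. The motif of the TATA box was taken as TATAAA. That of the E-box, which clock proteins and other factors bind, was CACGTG. The cAMP response element was searched as TGACGTCA, and the AP-1 site, bound by Fos and Jun proteins, as TGANTCA. For the Egr factors the letters were GCGTGGGCG, and for the Nr4a receptors AAAGGTCA. The core of a glucocorticoid response element was read as ACANNNTGT and the GC box as GGGGCGGGG. The NRF1 motif is the second run of capitals in the Gabrb1 line. RefSeq gave 10 windows for 6 of the 7 members, and Gabrd had none in the table. The Gabrb1 window holds the NRF1 motif from 16 bases before the start, found in 0.782% of all 32851 windows of this length, and the ACANNNTGT core from 47 bases before the start, found in 5.84%. The Gabrb2 window has a TATA box from 30 bases before the start, as 12.4% of all windows do at some position. The only other match was TATAAA on the opposite strand of Gabra3, a single site that both of its overlapping windows hold. The letters of the E-box, cAMP response element, AP-1, Egr, Nr4a and GC box motifs, present in 6.02%, 1.55%, 6.75%, 0.536%, 1.34% and 10.4% of all windows, were not in these windows of the members. The Gabra2 window is the richest in G and C of the 10, at 70.0% with 18 CpG sites, against medians of 52.4% and 6 over all windows. The Gabrb1 and Gabrb2 windows shown, chosen from several because they hold motif matches, have 50.8% and 58.8% G and C. The window at the outer Gabrb1 start, part of which is a Gabra4 exon, has 64.4% with 18 CpG sites, and the other Gabrb2 windows have 54.0% and 36.8%.

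To compare levels between subunits, CPM (read counts relative to library size, scaled by TMM factors) were divided by the summed exon length in kb. On this scale Gabra3, an alpha subunit of synaptic receptors, was the highest of the 7 members at 61.4 ± 1.38 CPM per kb (SD, n = 6), and its lowest mouse stood above the highest mouse of each other member. Gabra4, the alpha partner of delta in the forebrain, had 35.6 ± 2.58 CPM per kb (SD, n = 6). Gabrb2, a beta subunit, had 30.4 ± 3.13 CPM per kb (SD, n = 6). The mice of Gabra4 and Gabrb2, neighbours in this order, overlapped. Gabrd, the delta subunit, had 27.96 ± 2.06 CPM per kb and Gabra5 had 26.1 ± 1.72 CPM per kb (SD, n = 6 each). The spread of Gabrd overlapped those of both Gabrb2 and Gabra5, so the order of these neighbours is not resolved. Gabra2 stood below them without overlap at 21.3 ± 1.69 CPM per kb (SD, n = 6), and Gabrb1 was the lowest member, again without overlap, at 10.4 ± 1.24 CPM per kb (SD, n = 6). These levels depend on the length used, since Gabrb1 has 13838 bp of annotated exon but 1422 bp of coding sequence, and Gabrd 2875 and 1347 bp. Per kb of coding sequence, with the reads of the whole gene still counted, Gabra3 remained the highest member at 151 CPM per kb. Gabrb1 had 101, and Gabra5 and Gabrd were the lowest members at 56.0 and 59.7. Genes with much exon outside the coding sequence are raised on this scale.

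**Figure D1:**
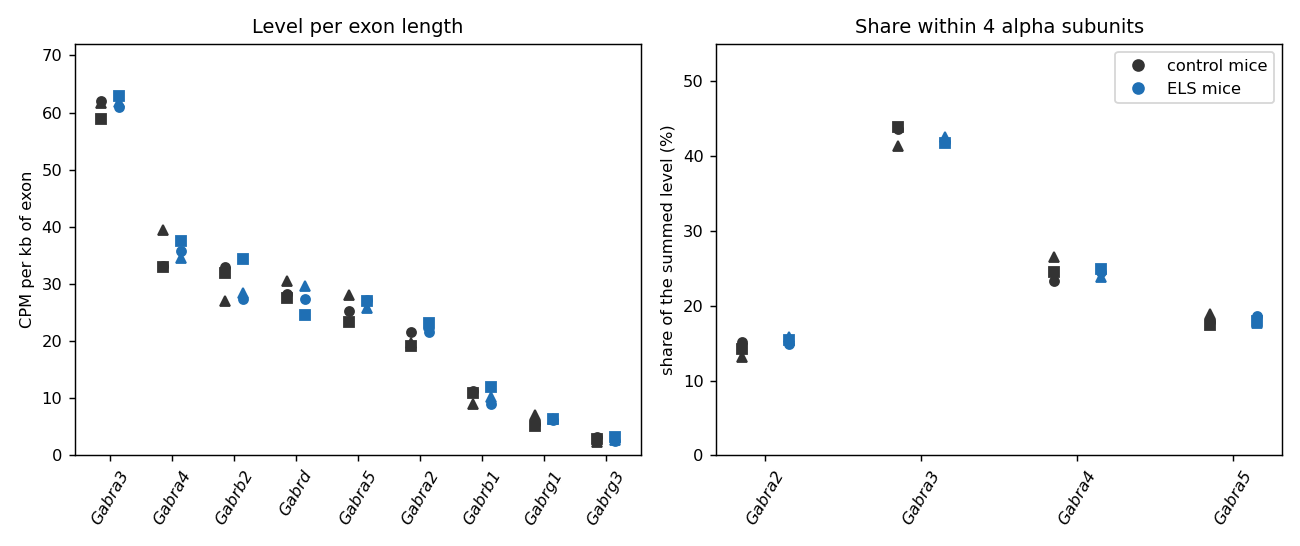
Left, level of the 7 members, Gabrg1 and Gabrg3 (CPM per kb of exon, linear axis), and right, share of Gabra2, Gabra3, Gabra4 and Gabra5 in their summed level (%), with 1 point per mouse, control mice in black and ELS mice in blue, and the marker shape giving the mouse number within its group. Gabra3 is the highest of the 7 members on the left at 61.4 CPM per kb, and on the right the mean Gabra2 share is 14.2% in control and 15.4% in ELS mice.

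Of 9 further subunit genes of the family, Gabrg1 and Gabrg3 passed the filter of 1 CPM in all mice of a group. The remaining 7 had few or no reads. Gabra6, known for its expression in cerebellar granule cells, had a count of 0 in all 6 mice, and Gabrq, the subunit with the most reads among these 7, had 11 to 27 per mouse.

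All 7 members passed the filter, with 1960 to 8641 reads per mouse in libraries of 28405795 to 35241743 counted reads. They were compared between groups with edgeR's quasi-likelihood test on all 13185 genes that passed the filter. Of these genes, 2 passed both thresholds, a background of 0.0152%, and 0 of the 7 members did. DESeq2, limma-voom and the edgeR likelihood ratio test called 0 of the 7 as well, and 18, 2 and 28 of all genes tested. At an unadjusted p under 0.05, 1 of the 7 was found, higher in ELS mice, against 4.23% of all genes tested in either direction and 1.89% higher. The median log2 fold change of the members was 0.025, beside -0.0046 over all genes tested, and their median absolute log2 fold change was 0.034, beside 0.058. The spread of log2 CPM within groups was larger than the difference between group means for 6 of the 7, with Gabra2 the exception (SD 0.075, difference 0.17). Over all genes tested the median SD was 0.107 and the median difference 0.054. In bulk tissue, fewer cells of a type and less RNA per cell cannot be told apart.

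Gabra2 encodes the alpha2 subunit, found at synapses and on the axon initial segment. It had 165, 146 and 150 CPM in control mice 1 to 3, and 166, 177 and 175 CPM in ELS mice 1 to 3. Every ELS mouse was above every control mouse, but control mouse 1 and ELS mouse 1 were 164.6 and 165.6 CPM, nearly level. Groups that do not overlap were found for 1 of the 7 members and for 8.28% of all genes tested. Of all genes tested, 3.81% were apart with ELS mice higher and 4.47% with ELS mice lower. The control mean was 153 ± 9.98 CPM and the ELS mean 173 ± 6.24 CPM (SD, n = 3 each). The log2 fold change was 0.17 (standard error 0.0697, 95% interval 0.020 to 0.32, edgeR unadjusted p = 0.0293, adjusted p = 1). It stayed between 0.14 and 0.23 over the 16 other fits, with edgeR, DESeq2 or limma adjusted p from 0.41 to 1. Its unadjusted p rose above 0.05 without control mouse 2, ELS mouse 2 or ELS mouse 3, and was 0.111 at most.

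Gabra3 encodes the alpha3 subunit and varied least of the 7. It had 243, 231 and 242 CPM in control mice and 239, 247 and 242 CPM in ELS mice. Its highest mouse was 1.07 times its lowest, and the groups overlapped. The log2 fold change was 0.02 (standard error 0.0619, 95% interval -0.11 to 0.16, edgeR adjusted p = 1).

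Gabra5 encodes the alpha5 subunit of tonic receptors. It had 75.4, 69.4 and 83.8 CPM in control mice and 80.9, 80.6 and 76.6 CPM in ELS mice. The control mice held both the lowest and the highest value. The log2 fold change was 0.06 (standard error 0.0769, 95% interval -0.11 to 0.23, edgeR adjusted p = 1), and it was -0.0035 without control mouse 2.

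Gabra4 and Gabrd encode the alpha4 and delta subunits, which join in the tonic, neurosteroid-sensitive receptors of the forebrain. Gabra4 had 201, 200 and 240 CPM in control mice and 217, 229 and 211 CPM in ELS mice. Gabrd had 81.2, 79.1 and 87.5 CPM in control mice and 78.7, 70.6 and 85.2 CPM in ELS mice. Control mouse 3 had the highest value of the 6 for both genes, and ELS mouse 2, the lowest for Gabrd, was the second highest for Gabra4. The log2 fold change of Gabra4 was 0.03 (standard error 0.0801, 95% interval -0.14 to 0.21, edgeR adjusted p = 1). That of Gabrd was -0.08 (standard error 0.0794, 95% interval -0.25 to 0.093, edgeR adjusted p = 1), and with a mouse left out it ran from -0.15 without ELS mouse 3 to -0.014 without ELS mouse 2. The groups overlapped for both. The Gabra4 value turned negative, to -0.012 at the lowest, without control mouse 1, control mouse 2 or ELS mouse 2.

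Gabrb1 and Gabrb2 encode the beta1 and beta2 subunits, which form part of the GABA binding site. Gabrb1 had 157, 151 and 124 CPM in control mice and 124, 165 and 142 CPM in ELS mice. Gabrb2 had 210, 203 and 172 CPM in control mice and 174, 219 and 181 CPM in ELS mice. Control mouse 3 and ELS mouse 1 were the lowest for both genes and ELS mouse 2 the highest for both, so the low and the high mice came from both groups. The highest mouse was 1.34 times the lowest for Gabrb1 and 1.27 times for Gabrb2, the widest ranges of the 7. The log2 fold change of Gabrb1 was -0.0020 (standard error 0.108, 95% interval -0.24 to 0.23, edgeR adjusted p = 1). That of Gabrb2 was -0.03 (standard error 0.0974, 95% interval -0.24 to 0.18, edgeR adjusted p = 1). The sign of both values turned in the 4 fits that left out control mouse 1, control mouse 2, ELS mouse 1 or ELS mouse 3, to 0.090 for Gabrb1 and 0.036 for Gabrb2 at the highest.

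**Figure D2:**
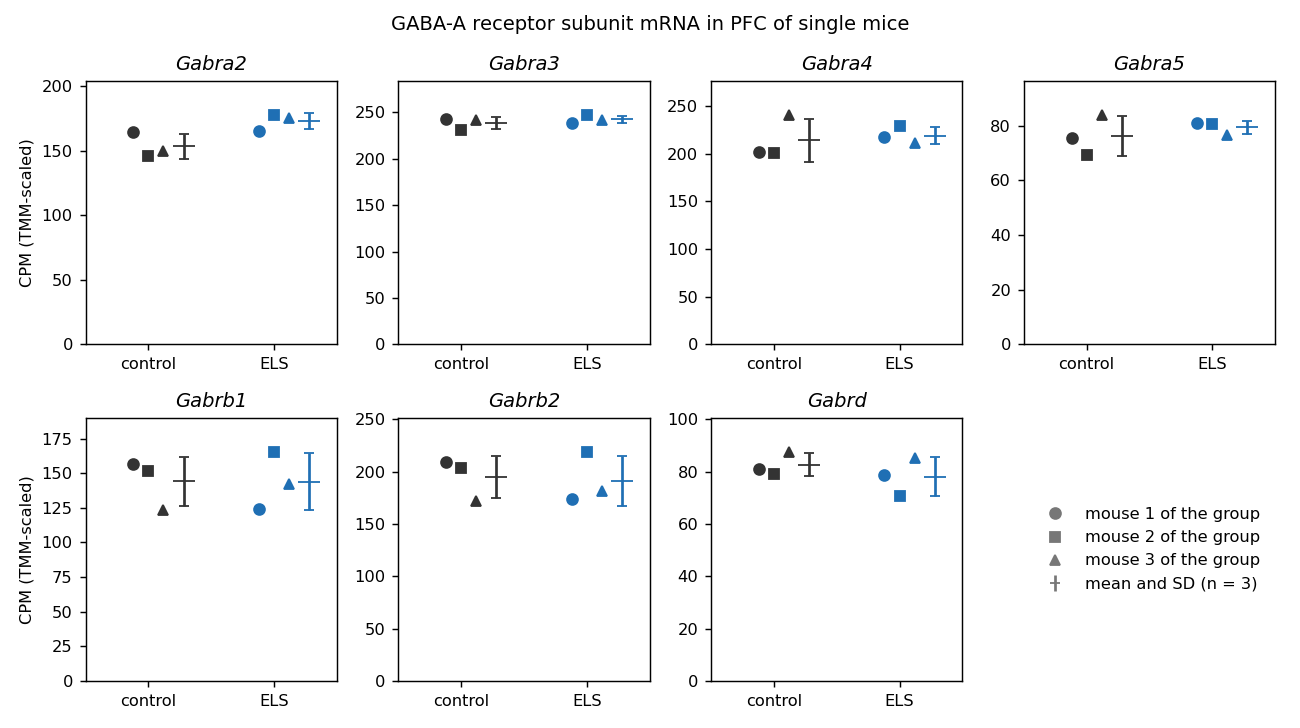
CPM (TMM-scaled, linear axis from 0) of the 7 subunits in each mouse, control in black and ELS in blue, with the marker shape giving the mouse number within its group and the bar beside the points giving the mean and SD of 3 mice. Gabra2 has no overlap between groups (145.7 to 164.6 CPM in control, 165.6 to 177.4 CPM in ELS mice), and the groups of the other 6 subunits overlap.

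**Figure D3:**
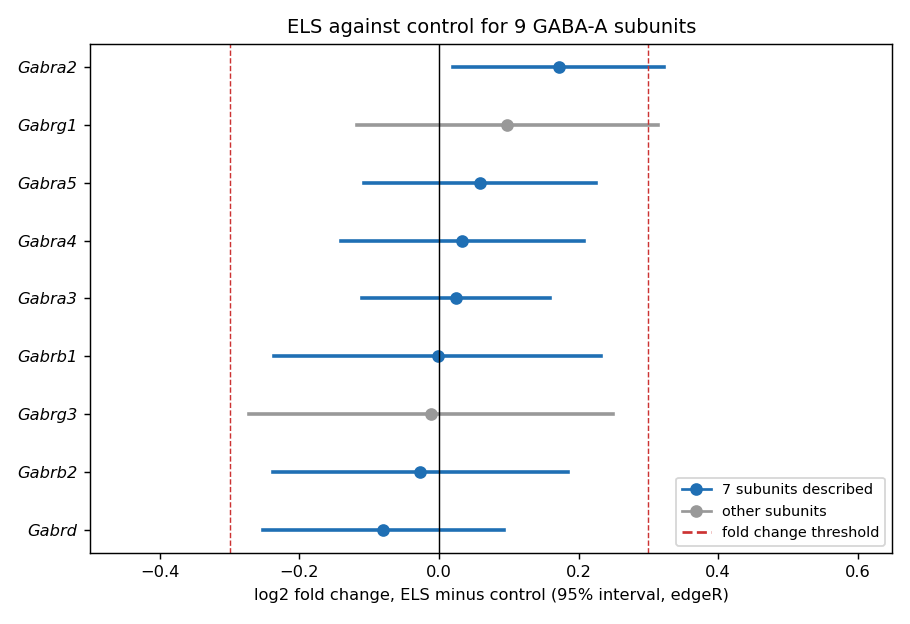
Log2 fold change (ELS minus control, edgeR) of 9 GABA-A subunits, with 95% intervals, the 7 members in blue and Gabrg1 and Gabrg3 in grey, and dashed lines at the fold change threshold of 0.3. The interval of Gabra2 runs from 0.020 to 0.32, and, with all 6 mice, the intervals of the other 6 members include 0 and stay inside the dashed lines.

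The balance among the 4 alpha members was compared as the share of each in the summed per-kb level of Gabra2, Gabra3, Gabra4 and Gabra5, a quantity that does not depend on library scaling. Gabra2 made up 15.2%, 14.2% and 13.2% in control mice and 14.9%, 15.4% and 15.8% in ELS mice. On this measure control mouse 1 lay above ELS mouse 1, so the groups overlapped. The difference was 1.18 percentage points (exact permutation test, two-sided, p = 0.2, where 0.1 is the smallest that 3 against 3 mice allow, and 0.8 after Benjamini-Hochberg adjustment over 4 shares). The Gabra3 share was 43.0% ± 1.36 in control and 42.1% ± 0.463 in ELS mice, and the Gabra4 share 24.8% ± 1.61 and 24.4% ± 0.532 (SD, n = 3 each). Gabra5 made up 18.1% ± 0.785 in control and 18.1% ± 0.493 in ELS mice (SD, n = 3 each). The exact permutation p was 0.4 for Gabra3 and 0.9 for both Gabra4 and Gabra5, and the groups overlapped for all 3. The shares depend on the length used. With the reads of the whole gene divided by coding length, Gabra2 made up 25.7% ± 1.69 in control and 27.6% ± 0.698 in ELS mice (SD, n = 3 each). Without control mouse 3 the Gabra4 difference turned from -0.335 to 0.527 percentage points.

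Relative to the mean of the 6 mice, Gabrb1 stood at 86.0% in control mouse 3 and 86.4% in ELS mouse 1, and Gabrb2 at 89.0% and 90.1%. Gabrg3, a gamma subunit gene on another chromosome than either, was also lowest in these 2 mice, at 82.2% and 89.4%. Gabra4 and Gabra5 had their highest value in control mouse 3 instead, at 111% and 108%, as did Gabrg1 at 115%. Gabra4 and Gabrb1, which share their 5' ends, thus stood on opposite sides of their means in that mouse.

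Control mouse 3 and ELS mouse 1 also stood apart in markers of other tissue. The summed level of 10 striatal projection neuron markers was 574 and 562 CPM in these 2 mice and 309 to 398 CPM in the other 4, and all 10 markers, among them Drd2, Adora2a and Rgs9, were detected in every mouse. The summed oligodendrocyte markers were also highest there (7915 and 6999 CPM against 6003 to 6626 CPM), and the summed excitatory neuron markers were lowest (7414 and 6984 CPM against 7835 to 8131 CPM). Camk2a alone gave 3399 CPM of the excitatory sum in ELS mouse 1. Not every marker followed that sum: Neurod6 had 123 CPM and Slc17a6 20.2 CPM in ELS mouse 1, each the second highest of the 6 mice. None of the markers summed here was called between groups (0 of 10, 0 of 6 and 0 of 8). The part of tissue makeup in the levels of Gabrb1 and Gabrb2 was not tested. Without both mice, an alternative added after the data had been seen, 0 of the 7 members and 27 of all genes tested were called. The log2 fold changes of the members were 0.19 for Gabra2, 0.13 for Gabra4, 0.12 for Gabra5, 0.05 for Gabra3, -0.0030 for Gabrb1, -0.04 for Gabrb2 and -0.04 for Gabrd. Among them edgeR gave the smallest adjusted p, 0.41, for Gabra2. The Gabra4 value was 0.03 with all mice.

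**Figure D4:**
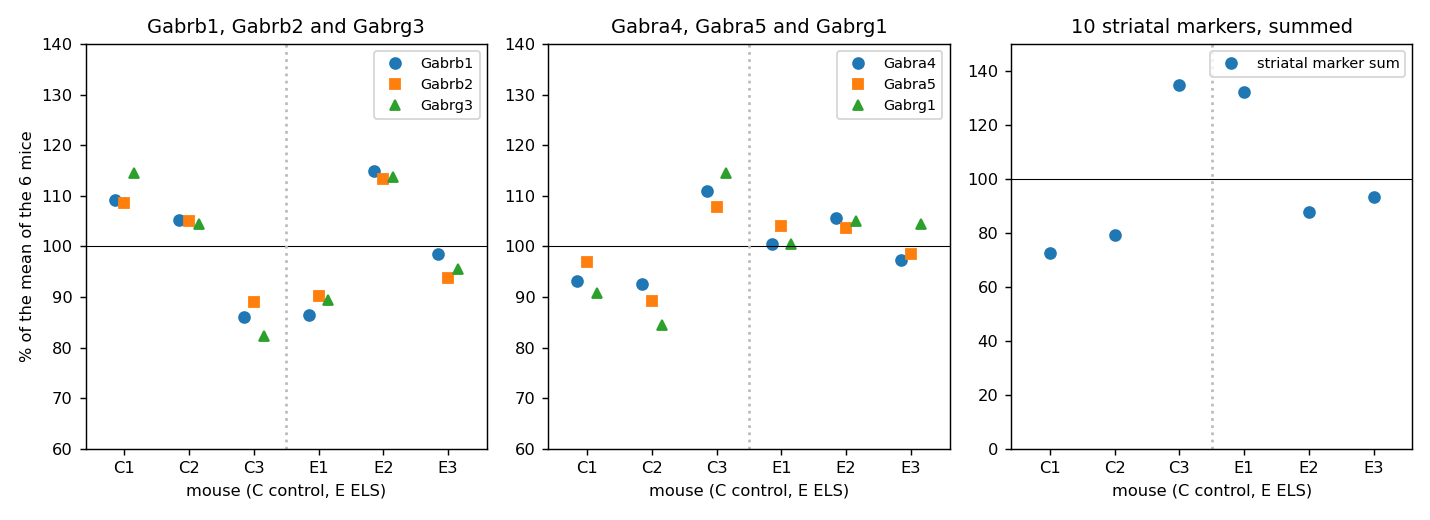
Level in each mouse as % of the mean of the 6 mice, for Gabrb1, Gabrb2 and Gabrg3 (left), for Gabra4, Gabra5 and Gabrg1 (middle) and for the sum of 10 striatal markers (right), with C1 to C3 the control mice and E1 to E3 the ELS mice. In C3 and E1 the 3 genes on the left lie between 82.2% and 90.1%, and the striatal sum on the right lies at 135% and 132%. The left and middle axes start at 60.

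As a description of pattern, the genes most like each member over the 6 mice were found by Pearson correlation of log2(CPM + 1), 2 genes per member from all genes tested. The values are high partly because the genes were picked from 13185 over 6 mice. For Gabrb1 they were Kcnj6, a G protein-gated potassium channel subunit (r = 0.999), and Bmpr2 (r = 0.997), and for Gabrb2 Rnf217 (r = 0.997) and Lrp11 (r = 0.996). For Gabra2 they were Alcam, a cell adhesion molecule (r = 0.998), and Aldh1a2, which makes retinoic acid (r = 0.991), and for Gabra4 Rit2 (r = 0.999) and Rnf2 (r = 0.996). Gabra3 was most like Tnks2 (r = 0.995) and Adam10 (r = 0.982), Gabra5 most like Zfp563 (r = 0.989) and Armc1 (r = 0.986), and Gabrd most like Ctnna1 (r = 0.992) and Ghdc (r = 0.984). They are given with no p.

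The rest of the GABA pathway was read from 6 lists with 59 genes, of which 48 passed the filter. None was called (0 of 48), against the background of 0.0152%, and 1 had an unadjusted p under 0.05, as 4.23% of all genes tested did. Of 9 further receptor subunits 2 were tested, with log2 fold changes of 0.10 for Gabrg1 and -0.01 for Gabrg3 (edgeR adjusted p = 1 for both). Gabrg1, in the cluster of Gabra2, had 46.5 ± 7.67 CPM in control and 49.8 ± 1.19 CPM in ELS mice, and Gabrg3 had 33.9 ± 5.596 CPM and 33.6 ± 4.30 CPM (SD, n = 3 each).

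For the genes that anchor, assemble and move GABA-A receptors, 22 of 23 were tested and 0 called, with log2 fold changes from -0.14 to 0.13. The smallest unadjusted p in this list were those of Trak1, a motor adaptor (240 ± 17.4 CPM in control and 218 ± 18.4 CPM in ELS mice), and Plcl2, a phospholipase C-like protein (107 ± 1.73 and 99.4 ± 4.60 CPM, SD, n = 3 each), at 0.116 and 0.127 (edgeR, adjusted p = 1 for both). The groups of Plcl2 did not overlap, with ELS mice lower, as found for 4.47% of all genes. Of the 8 genes for GABA synthesis, release, uptake and breakdown, 0 were called. Slc6a13, a GABA transporter of the brain coverings, had 7.84 ± 1.02 CPM in control and 9.49 ± 1.70 CPM in ELS mice, and Aldh5a1, which degrades a product of GABA, 114.5 ± 4.17 CPM and 108 ± 5.43 CPM (SD, n = 3 each, adjusted p = 1 for both in edgeR). Of 6 chloride transporters and their kinases 0 were called. The smallest p belonged to the kinase Wnk1 (control 267 ± 7.53 CPM, ELS 247 ± 18.9 CPM, SD, n = 3 each) and to the kinase Stk39 (log2 fold change 0.04, standard error 0.0665), with edgeR adjusted p = 1 for both. Of 5 GABA-B receptor genes 0 were called, with log2 fold changes from 0.0038 for Gabbr2 to 0.30. Kctd8, an auxiliary subunit, had 8.68 ± 0.577 CPM in control and 10.7 ± 1.54 CPM in ELS mice, with a log2 fold change of 0.30 (standard error 0.127, unadjusted p = 0.0330, adjusted p = 1, edgeR). Its relative Kctd12 had 90.9 ± 8.16 CPM and 100.5 ± 3.71 CPM (SD, n = 3 each, adjusted p = 1). In the list of neurosteroid enzymes and benzodiazepine site ligands, 5 of 8 were tested and 0 called, with log2 fold changes from -0.06 to 0.02. Srd5a1, which makes the precursor of allopregnanolone, had 10.8 ± 0.575 CPM in control and 10.7 ± 0.445 CPM in ELS mice, and Srd5a3 18.5 ± 0.667 and 17.7 ± 0.791 CPM (SD, n = 3 each).

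Markers of the cells that carry or contact these receptors were read beside them. The summed level of 15 GABA neuron markers ran from 1175 to 1297 CPM in control and from 1215 to 1307 CPM in ELS mice. Of these, 0 were called and 2, Ndnf and Adarb2, had an unadjusted p under 0.05, both higher in ELS mice, against 4.23% of all genes tested. The log2 fold changes were above 0 for 9 markers and below 0 for 6, with a median of 0.0033. They ran from -0.19 for Lhx6 to 0.57 for Ndnf (edgeR adjusted p = 0.714), 2 markers named for being the ends of the list. All 8 excitatory neuron markers and all 6 upper-layer markers passed the filter, as cortex should show. The log2 fold changes of the excitatory markers were above 0 for 1 and below 0 for 7 (median -0.073). Those of the 10 striatal markers were above 0 for 9 and below 0 for 1 (median 0.175). No choroid plexus marker passed the filter (0 of 5), while 3 of 5 hippocampal and 5 of 5 thalamic markers did, with 0 called in either list. At an unadjusted p under 0.05 there were 0 of 3 hippocampal markers, 2 of 5 thalamic markers (both lower in ELS mice), 2 of 6 endothelial and mural cell markers and 1 of 6 upper-layer markers (all 3 higher), and 0 of the deep-layer, astrocyte and microglia markers, with 0 called in these lists as well. The summed hippocampal markers ran from 145 to 166 CPM in control and from 146 to 178 CPM in ELS mice, and the summed thalamic markers from 127 to 156 CPM and from 116 to 137 CPM. Single genes carried much of these sums: in control mouse 3, Zbtb20 gave 79.0 of 145 CPM and Rora 94.4 of 127 CPM. The hippocampal markers Dsp and Spink8, which did not pass the filter, had at most 4 and 38 reads in a mouse. Whether hippocampal or thalamic tissue was in the samples was not tested.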

How the data were processed

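RNA-seq was analysed for PFC of 3 control and 3 ELS mice (1 library each). Per the paper, the authors used Trimmomatic for trimming, STAR for alignment to mm10 and HTSeq for counting unique alignments. The submitters' processing notes give STAR 2.7.1a and HTSeq 0.9.1, while the paper names another STAR version. The deposited values are raw counts per gene symbol, not normalized or pooled. The annotation release and strand setting are not given in the sources used here. The labels and the paper name different stranded kits. The ELS columns are headed by an abbreviation of social isolation and were matched by that term and number. Total counts ran from 28405795 to 35241743, each ELS library being deeper than each control library, and pairs within a group differed beyond sampling noise (lowest chi-square per degree of freedom 6.25).

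The tests ran in edgeR 4.0.16 under R 4.3.3 (quasi-likelihood test, TMM factors), keeping 13185 of 22000 genes that reached 1 CPM throughout either group. Standard errors came from the F statistic and adjusted p from the Benjamini-Hochberg method over all genes tested. limma 3.58.1 (voom), DESeq2 1.42.0 and other normalizations, filters, a block for mouse number and fits without each mouse in turn were alternatives. Code was tested on simulated data with planted fold changes larger than those of the members, so that test does not cover differences of their size. Exon lengths were from GENCODE M21. Exact permutation tests used SciPy 1.17.1. Members and lists were chosen with earlier results of these data known. Genes named are all members, the further subunits tested, the 2 genes of smallest p per pathway list, and the 2 genes most like each member. The markers Drd2, Adora2a, Rgs9, Ndnf, Adarb2, Lhx6, Camk2a, Neurod6, Slc17a6, Rora, Zbtb20, Dsp and Spink8 were named after their values were seen. So were Gabra6, Gabrq and Gabbr2. Of the list genes, 2 were not matched to a symbol. Some genes of the family are not reported here, and shares were therefore taken over the 4 alpha members, a set chosen after the values had been seen.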

Additional observations from a re-analysis of the deposited data

How the results depend on the processing

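No member and no gene of the pathway lists was called in the fit reported, in 15 other fits or in the 1 added after the data had been seen, which left out both mice with high striatal markers. The number of genes called over the whole table was 2 in the fit reported and 18 with DESeq2, 28 with the edgeR likelihood ratio test, 4 when every gene with a read was kept, 7 with the replicate block and 27 without both of those mice. With 1 mouse left out it ran from 1 to 29, the 29 without control mouse 3, and the cause was not tested. It was 2 with limma-voom, other normalizations, filterByExpr and no fold change threshold.

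Gabra2, Gabra3 and Gabrd kept their sign in all 16 alternatives, but with a mouse left out their log2 fold changes ran from 0.14 to 0.23, from 0.0018 to 0.039 and from -0.15 to -0.014. Besides Gabra2, 95% intervals passed 0.3 or -0.3 when 1 mouse was left out. That of Gabrb1 reached 0.33 without control mouse 1, 0.32 without control mouse 2, 0.33 without ELS mouse 1 and -0.35 without ELS mouse 2. That of Gabrb2 reached -0.34 without ELS mouse 2, and that of Gabrd -0.31 without control mouse 2 and -0.34 without ELS mouse 3. The log2 fold change of Gabrb1 turned to 0.0080 with upper-quartile factors and to 0.0075 with library totals alone. With a mouse left out it ran from -0.12 to 0.090, that of Gabrb2 from -0.14 to 0.036, that of Gabra4 from -0.012 to 0.12 and that of Gabra5 from -0.0035 to 0.13. For Gabrg3 the range was -0.14 to 0.095, and for Gabrg1 it was 0.010 (without control mouse 2) to 0.24 (without control mouse 3), with 0.26 without both mice of high striatal markers (edgeR adjusted p = 0.24). The difference in share among the 4 alpha members with a mouse left out ran from 0.666 to 1.67 percentage points for Gabra2, from -1.71 to -0.479 for Gabra3, from -1.07 to 0.527 for Gabra4 and from -0.251 to 0.516 for Gabra5, and coding length turned the Gabra5 value from 0.083 to -0.0775 and moved those of Gabra2 from 1.18 to 1.84 and of Gabra4 from -0.335 to -0.680.

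With coding length, levels were 121 CPM per kb for Gabra2, 151 for Gabra3, 125 for Gabra4, 56.0 for Gabra5, 101 for Gabrb1, 126 for Gabrb2 and 59.7 for Gabrd. The reads of the whole gene were used there as well. Same-numbered mice had correlations of deviations of -0.164, 0.258 and -0.036, so the numbers were not taken to pair the mice. With the replicate block the Gabra2 log2 fold change was 0.17 (edgeR adjusted p = 1), and its share difference had p = 0.5 by exact permutation within pairs. Not every mouse correlated best with its own number. Each group held 3 mice, and what depth adds to the limits was not tested.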
